A study of Mus musculus with 6 samples.

Results

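The genes described here were 36 genes of the unfolded protein response and the integrated stress response, taken from the 45777 genes of the deposited table by their symbols. They were measured by RNA-seq in bone marrow neutrophils of C57BL/6 mice with a wild-type genotype. In the first group, cells purified on a Percoll gradient spent 24 h with prostaglandin E2 (PGE2) at 10 µM, a lipid mediator of inflammation. In the second group, the same kind of cells received the DMSO vehicle for the same 24 h. Each group had 3 libraries, which the series calls biological replicates. The sources used here do not give the age or sex of the mice or whether cells were pooled.

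The unfolded protein response reports on protein folding in the endoplasmic reticulum (ER). Unfolded proteins activate the sensors PERK, IRE1 and ATF6, which slow translation, splice the Xbp1 transcript and release a transcription factor for chaperone genes. The integrated stress response converges on the same step as PERK: kinases such as PERK and GCN2 phosphorylate the translation factor eIF2α, most proteins are made more slowly, and the transcription factor ATF4 is translated more. Much of this signalling acts on translation, splicing and protein cleavage, which counts per gene do not measure. Neutrophils build most of their granule proteins during maturation in the marrow, and XBP1 is known for its part in the development of secretory blood cells such as eosinophils and plasma cells.

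The libraries held between 48396252 and 56238941 counts with PGE2 and between 42091346 and 53834642 with vehicle. Replicates of a group correlated between 0.961 and 0.981 over genes on the log2 scale, and the biological coefficient of variation was 22.4%. Markers of neutrophils were abundant. The summed level of 12 neutrophil genes was 75630 to 91136 with PGE2 in CPM, which are counts scaled to a common library size. With vehicle it was 86161 to 91039 CPM. Most of each sum came from S100a8 and S100a9, with means of 19707 and 42105 CPM with PGE2, and neither rose nor fell in the test given below. Of the 12 genes 7 fell (58.3%), where 14.3% of all tested genes fell. Among them were Ly6g, at 96.0 CPM with PGE2 against 175 CPM with vehicle, and Csf3r, at 2697 CPM against 5152 CPM. Without PGE2 replicate 2 or 3 there were 3 such falls, and without vehicle replicate 1 or 2 there were 4. Hemoglobin genes took 1.57 to 4.87% of counts with PGE2 and 0.413 to 1.86% with vehicle, and the highest share of each group was in its replicate 2. In bulk samples such as these, fewer cells of a type and less RNA per cell cannot be told apart.

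All 36 genes passed the filter of at least 10 counts in at least 3 libraries. Differences were tested with edgeR's quasi-likelihood test over 15947 genes, two-sided, with Benjamini-Hochberg adjustment, and a gene passed with an adjusted p below 0.05. PGE2 changed 8 of the 36 genes, or 22.2%, against 24.4% of all tested genes. Of these, 6 rose, where 10.1% of all tested genes rose: Atf4, Ppp1r15a and the ER folding genes Hspa5, Hsp90b1, Dnajb9 and Manf. The 2 that fell, where 14.3% of all tested genes fell, were Ern1 and Eif2ak3, which encode the sensors IRE1α and PERK. The other 28 did not pass. The share that passed was thus near that of all genes. Of the 8 calls 75% were rises, beside 41.5% of the calls among all genes, and this difference was not tested. With scaling by library totals only, 9 stress genes rose and 2 fell, where 24.7% of all genes passed, 13.7% as rises and 11% as falls; rises were then 81.8% of the calls among the stress genes and 55.5% of those among all genes. On deposited TPM, which scale each count by gene length and library size, 4 rose and 3 fell, where 25.5% of all genes passed, 7.66% as rises and 17.9% as falls; rises were then 57.1% and 30% of the calls.

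**Figure D1:**
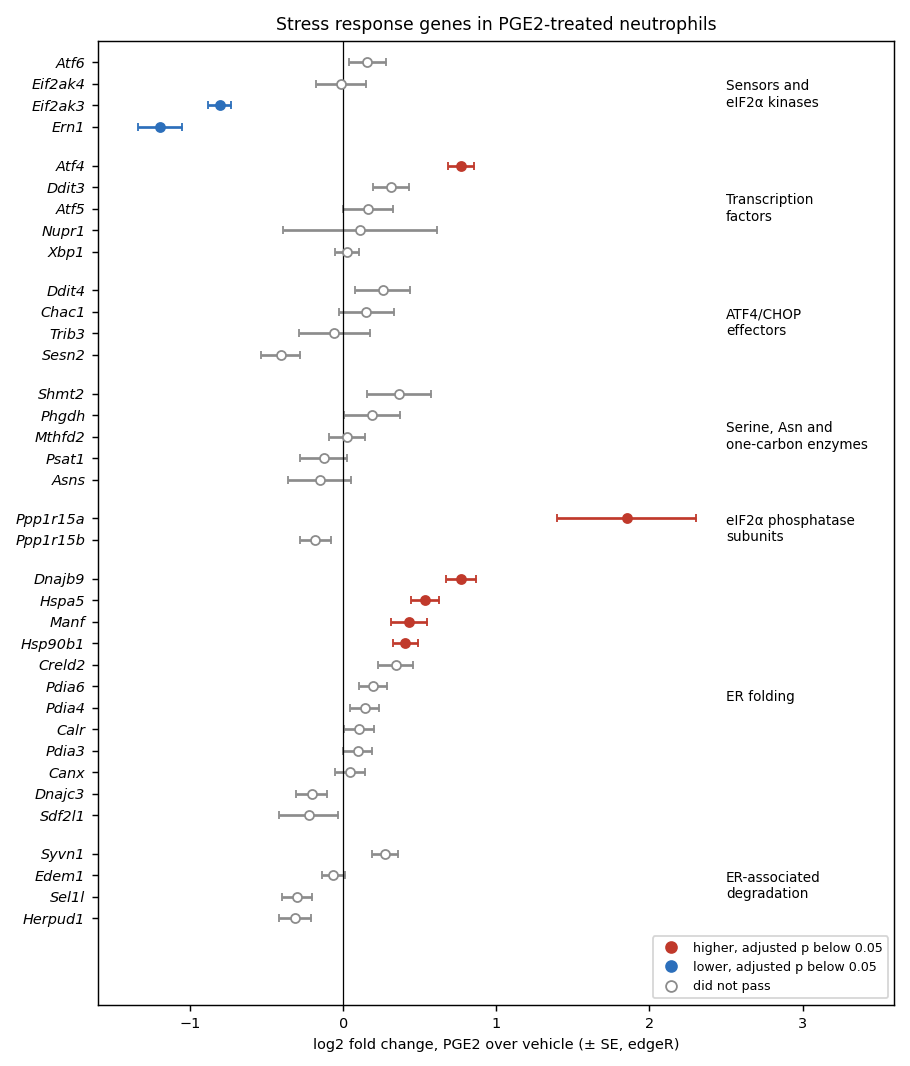
Fitted log2 fold change of PGE2 over vehicle for the 36 genes, grouped by role, with bars of ± 1 SE (n = 3 libraries per group). Red points passed as higher, blue as lower, and open grey points did not pass; Ern1 and Eif2ak3 lie left of zero at -1.20 and -0.81, and Ppp1r15a lies farthest right at 1.85 with the widest bar of the genes that passed.

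The median log2 fold change of the 36 genes was 0.11, and that of all tested genes was 0.04. It was 0.05 without PGE2 replicate 1 and 0.07 without vehicle replicate 3. By sign alone, 23 estimates were above zero and 13 below; the same count was 26 and 10 with library totals and 18 and 18 on TPM. These scalings moved the median of all genes as well, to 0.13 with library totals and to -0.06 on TPM. In 15 of the 36 genes (41.7%) the 3 PGE2 libraries and the 3 vehicle libraries did not overlap, against 42.3% of all tested genes. In 10 of them PGE2 was above vehicle and in 5 it was below, where the shares of all tested genes were 20.5% and 21.8%.

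Same-numbered replicates deviated together, so the test was also run with the replicate number as a block. With the block 10 stress genes rose and 5 fell, which was 41.7% of them against 35.5% of all tested genes, and 16.6% and 18.9% of all genes rose and fell. The block added Ddit3, Creld2, Shmt2 and Syvn1 to the genes that rose, and Sesn2, Sel1l and Herpud1 to those that fell. DESeq2 found 8 rises and 5 falls, where 12.3% and 16.7% of all genes rose and fell.

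The sensors stand at the top of the pathways, and 2 of the 4 fell. Eif2ak3 (chr6:70844484-70905241, mm10) encodes PERK, the ER membrane kinase that phosphorylates eIF2α. Its level was 107, 98.9 and 102 CPM in the PGE2 libraries and 173, 181 and 184 CPM in the vehicle libraries. The groups were far apart, and each varied little. Eif2ak3 averaged 103 ± 3.94 CPM with PGE2 and 179 ± 5.45 CPM with vehicle (SD, n = 3 each), a log2 fold change of -0.81 ± 0.08 (SE) with an edgeR adjusted p of 0.000461.

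Ern1 (chr11:106397620-106487796) encodes IRE1α, the kinase and ribonuclease that splices Xbp1 mRNA. Its level was 13.9, 9.89 and 11.4 CPM with PGE2, and 28.6, 24.9 and 27.1 CPM with vehicle. Every PGE2 library was below every vehicle library. The log2 fold change was -1.20 ± 0.14 (SE), or 0.436 times the vehicle level, with an edgeR adjusted p of 0.000991. Both falls passed under all 19 alternative settings.

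Atf6, which encodes the sensor cleaved in the Golgi to give a transcription factor, had 45.5, 41.1 and 38.2 CPM with PGE2, against 42.7, 32.6 and 36.6 CPM with vehicle. These groups overlapped, and the log2 difference was 0.16 ± 0.12 (SE, edgeR adjusted p = 0.397). With a trend on transcript length and GC content removed, an alternative chosen after seeing the data, Atf6 was at 0.37 with an adjusted p of 0.0349. Eif2ak4, which encodes the amino acid sensing kinase GCN2, had 9.15, 7.67 and 11.2 CPM with PGE2 and 9.62, 8.75 and 10.0 CPM with vehicle. Its groups overlapped too, and the 95% interval of its log2 difference ran from -0.39 to 0.36 (edgeR adjusted p = 0.959).

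Among the 5 transcription factors, 1 rose. Atf4 (chr15:80255184-80257545), the main transcription factor of the integrated stress response, had 265, 297 and 261 CPM in the PGE2 libraries and 158, 167 and 158 CPM in the vehicle libraries. All PGE2 libraries stood well above all vehicle libraries. It averaged 274 ± 19.6 CPM with PGE2 and 161 ± 5.09 CPM with vehicle (SD, n = 3 each), a rise of 1.70-fold with a log2 fold change of 0.77 ± 0.08 (SE) and an edgeR adjusted p of 0.000689. It passed under all 19 alternatives.

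Ddit3 (chr10:127290793-127296291) encodes CHOP, a factor downstream of ATF4 linked to cell death under lasting stress. It had 68.2, 83.8 and 69.3 CPM with PGE2, against 52.0, 62.5 and 63.3 CPM with vehicle. The groups did not overlap, but the gap between the lowest PGE2 and the highest vehicle library was small beside the spread. Its log2 difference was 0.32 ± 0.12 (SE), with an edgeR adjusted p of 0.0886; with the replicate block the adjusted p was 0.0183. With the length and GC trend removed Ddit3 was at 0.12 with an adjusted p of 0.519. The gene overlaps Mbd6 and Mars on the other strand, and no source used here says whether the counting was stranded.

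Xbp1 (chr11:5520641-5525993) encodes the factor made after IRE1 splicing, and the counts do not tell its spliced form from its unspliced form. Its level was 88.7, 94.7 and 91.7 CPM with PGE2 and 87.2, 89.5 and 93.5 CPM with vehicle. The groups overlapped, and the 95% interval of the log2 difference ran from -0.15 to 0.20 (edgeR adjusted p = 0.847). Atf5, a relative of ATF4, and Nupr1, a stress-induced chromatin protein, did not pass either. Their log2 differences were 0.16 ± 0.16 and 0.11 ± 0.50 (SE), and Nupr1 spread from 2.24 to 5.66 CPM with PGE2 and from 1.89 to 6.35 CPM with vehicle.

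**Figure D2:**
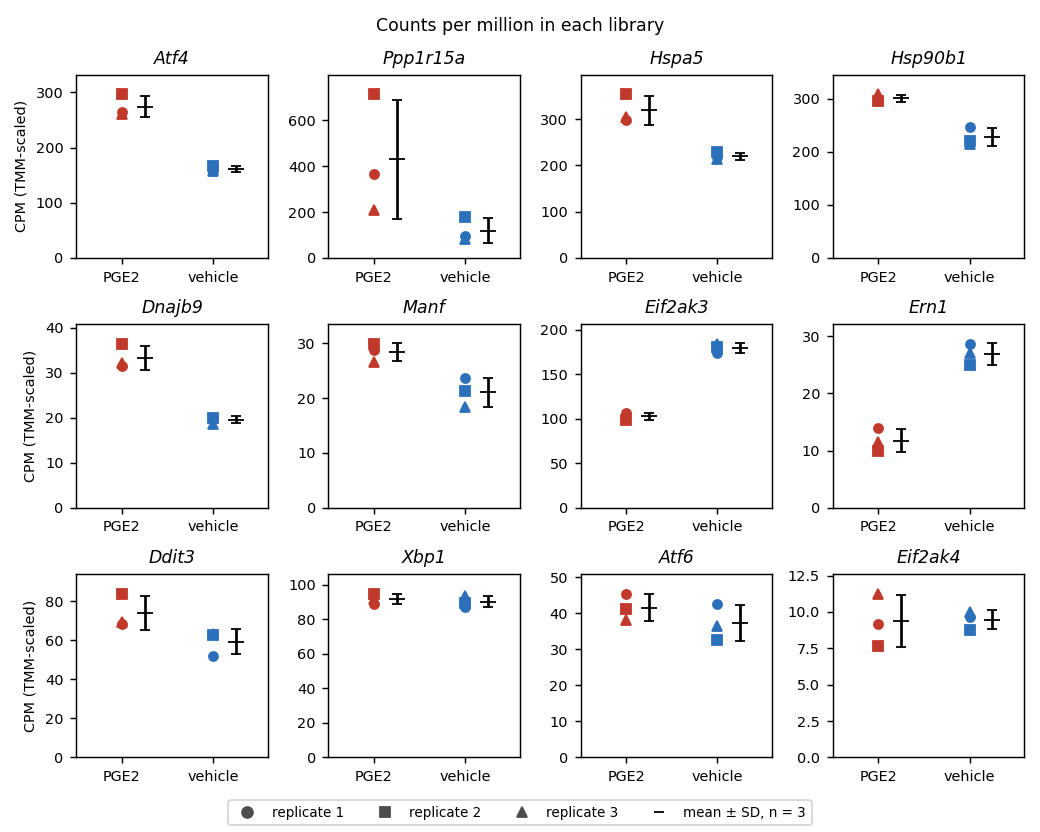
CPM, scaled by TMM, of 12 stress genes in each library, PGE2 in red and vehicle in blue; the marker shape gives the replicate number and the black bar the mean ± SD (n = 3). The groups are apart for Atf4, Dnajb9, Eif2ak3 and Ern1, close for Ddit3 and mixed for Xbp1, Atf6 and Eif2ak4, and Ppp1r15a reaches 714 CPM in PGE2 replicate 2.

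The phosphatase that removes the phosphate from eIF2α ends the response, and its targeting subunits behaved differently in these libraries. Ppp1r15a (chr7:45522917-45526268) encodes GADD34, the inducible subunit. It had 367, 714 and 208 CPM with PGE2, against 94.1, 180 and 83.6 CPM with vehicle. The groups did not overlap, and replicate 2 was the highest library in both. Ppp1r15a had the largest fitted rise of the 36 genes, 3.61-fold with a log2 fold change of 1.85 and a 95% interval from 0.80 to 2.90 (edgeR adjusted p = 0.0205).

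Within same-numbered pairs the log2 ratio of Ppp1r15a was 1.97, 1.99 and 1.32, and with the replicate block the adjusted p was 6.88e-05. Leaving out PGE2 replicate 2 gave a log2 fold change of 1.28 with an adjusted p of 0.0508. The adjusted p was 0.0709 without vehicle replicate 1 and 0.0652 without vehicle replicate 3. It was 0.0862 on TPM without a filter, and the rise passed in 15 of 19 alternatives. Without both replicate 2 libraries the log2 fold change was 1.70. The replicate 2 libraries also held the largest hemoglobin share of their group, and its part in the Ppp1r15a level was not tested. Ppp1r15b, the constitutive subunit, had a log2 difference of -0.18 ± 0.10 (SE, edgeR adjusted p = 0.238; -0.03 with the length and GC trend removed), with levels of 207 to 259 CPM with PGE2 and 248 to 278 CPM with vehicle.

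None of the 4 effectors downstream of ATF4 and CHOP passed edgeR's test, and 1 of them, Sesn2, had an unadjusted p below 0.05. Sesn2 encodes sestrin 2, an inhibitor of the growth kinase mTORC1. It had 44.0, 55.9 and 52.2 CPM with PGE2, against 57.3, 70.8 and 73.7 CPM with vehicle, and the groups did not overlap. Its log2 difference was -0.41 ± 0.13 (SE) with an adjusted p of 0.0523. It passed as lower in 9 of 19 alternatives, with an adjusted p of 0.00299 under the replicate block, 0.0165 in DESeq2 and 0.0237 without vehicle replicate 1.

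The other 3 effectors had overlapping groups. Ddit4, which encodes the mTORC1 inhibitor REDD1, was at 0.26 ± 0.18 on the log2 scale, and Chac1, a glutathione-degrading enzyme, was at 0.15 ± 0.18 (SE). Trib3, a pseudokinase that binds ATF4, was at -0.06 with a 95% interval from -0.59 to 0.47.

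The 5 enzymes of serine, asparagine and one-carbon metabolism, which are known ATF4 targets in many cells, gave no edgeR call, and none had an unadjusted p below 0.05. DESeq2 called none of them. Asns (asparagine synthetase) was at -0.15 on the log2 scale with a 95% interval from -0.63 to 0.32. Psat1 and Phgdh, enzymes of serine synthesis, were at -0.13 ± 0.15 and 0.19 ± 0.18 (SE). The mitochondrial folate enzymes Mthfd2 and Shmt2 were at 0.03 ± 0.12 and 0.37 ± 0.21. Shmt2 had an adjusted p of 0.0312 with the replicate block, and was higher with PGE2 in 3 of 3 pairs. The 5 genes had between 4.28 and 18 CPM with PGE2 and between 5.48 and 14.4 CPM with vehicle.

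ER folding was the largest role, with 12 of the 36 genes, and held the most rises. Of the 12 genes 4 rose (33.3%) and none fell, where 10.1% of all tested genes rose and 14.3% fell. Estimates were above zero in 10 of the 12. Without both replicate 2 libraries 1 of the 12 rose, in a fit where fewer of all tested genes rose as well. On TPM 2 of the 12 rose, where 7.66% of all tested genes rose. Calr, Pdia3 and Canx were then below zero at -0.01, -0.02 and -0.06. Hspa5 (chr2:34772090-34776529) encodes BiP, the main ER chaperone, which also holds the sensors inactive. Its level was 299, 354 and 304 CPM with PGE2 and 218, 228 and 213 CPM with vehicle. Every PGE2 library was above every vehicle library. The rise was 1.45-fold, a log2 fold change of 0.54 ± 0.09 (SE) with an edgeR adjusted p of 0.00423. It passed in 18 of 19 alternatives; without both replicate 2 libraries the adjusted p was 0.0596. Rabepk overlaps Hspa5 on the other strand.

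Dnajb9 (chr12:44205897-44210068) encodes ERdj4, a BiP cochaperone that represses IRE1. It had 31.5, 36.4 and 32.3 CPM with PGE2, against 19.99, 19.99 and 18.70 CPM with vehicle. The groups were well apart. The log2 fold change was 0.77 ± 0.10 (SE), with an edgeR adjusted p of 0.00132, and the rise passed in all 19 alternatives.

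Hsp90b1 (chr10:86690841-86705444) encodes GRP94, the ER form of HSP90. It had 299, 295 and 308 CPM with PGE2, against 246, 221 and 214 CPM with vehicle, and the groups did not overlap. The log2 fold change was 0.41 ± 0.08 (SE, edgeR adjusted p = 0.00943). The rise passed in 14 of 19 alternatives; the adjusted p was 0.0503 without vehicle replicate 2, 0.117 without both replicate 2 libraries and 0.129 on TPM.

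Manf (chr9:106888753-106891938) encodes a secreted ER protein that binds BiP. It had 28.7, 29.9 and 26.6 CPM with PGE2, against 23.7, 21.2 and 18.4 CPM with vehicle. The groups did not overlap, but the SE was larger than that of Hsp90b1 for a similar rise. Its log2 fold change of 0.43 ± 0.12 (SE) had an edgeR adjusted p of 0.0319. The adjusted p was above 0.05 in 9 of 19 alternatives, among them the fits without PGE2 replicate 1 (0.0588) or 2 (0.0937) and without vehicle replicate 2 (0.0910) or 3 (0.0962). Without vehicle replicate 2 only Dnajb9 and Hspa5 of the 12 passed as higher.

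The other 8 folding genes did not pass. Creld2, a secreted ER protein, had a log2 difference of 0.34 ± 0.11 (SE, edgeR adjusted p = 0.0616, and 0.0274 with the block), and its groups did not overlap. Pdia6 and Pdia4, which form and reshuffle disulfide bonds, were at 0.20 and 0.14. Pdia3, the disulfide isomerase that works with the lectin chaperones, was at 0.10, and the lectin chaperones themselves, Calr (calreticulin) and Canx (calnexin), were at 0.10 and 0.05. Dnajc3, the cochaperone P58IPK that inhibits PERK, and Sdf2l1, part of a BiP complex, lay below zero at -0.20 and -0.22. The SE was 0.09 or 0.10 for each of these 7 but Sdf2l1, with 0.19.

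Plasma cells carry abundant ER chaperones, and other marrow cells can remain in a density gradient fraction. The marker counts here and in the next paragraph stand beside 10.1% of all tested genes that rose and 14.3% that fell. With the replicate block these shares were 16.6% and 18.9%. Of 8 plasma cell markers tested, 2 rose (Prdm1 and Mzb1). DESeq2 called 3 of the 8 as higher, and the replicate block 6. The summed level of the list was 183 to 282 CPM with PGE2 and 138 to 199 CPM with vehicle. Most of it came from Pou2af1 and Irf4, which did not pass without the block. With the block in edgeR, Pou2af1 and Irf4 had adjusted p of 0.00131 and 0.00767. Their means were 119 and 56.2 CPM with PGE2, and 82.8 and 44.2 CPM with vehicle. The defining receptor gene Tnfrsf17 was at 0 counts in all PGE2 libraries and at 3, 0 and 4 counts in the vehicle libraries. The calls of Prdm1 and Mzb1 did not hold without PGE2 replicate 1, vehicle replicate 1 or vehicle replicate 2. Of 10 B cell markers 4 rose, with sums of 649 to 949 CPM with PGE2 and 439 to 595 CPM with vehicle. In this list 2 rose without vehicle replicate 1 or 2, and 8 with the replicate block. None of 10 erythroid markers passed edgeR's test, although 6 had an unadjusted p below 0.05, DESeq2 called 1 and the replicate block all 10, and their sums were 15700 to 51543 CPM with PGE2 and 4457 to 20157 CPM with vehicle. In edgeR 2 of them passed without PGE2 replicate 3 and 1 without vehicle replicate 2. Of 8 promyelocyte markers 3 fell, with sums of 331 to 437 CPM with PGE2 and 564 to 763 CPM with vehicle. With the replicate block 6 of these promyelocyte markers fell. Of 8 eosinophil markers 5 fell, with sums of 71.9 to 116 CPM with PGE2 and 149 to 289 CPM with vehicle; 2 fell without PGE2 replicate 2 or 3, and none without both replicate 2 libraries. The part of these cells in the stress gene levels was not tested.

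Of 10 monocyte and macrophage markers 2 fell (Csf1r and Adgre1), with sums of 797 to 1212 CPM with PGE2 and 1170 to 1533 CPM with vehicle, and of 7 dendritic cell markers 2 fell (Ccr9 and Clec9a). Of 8 basophil and mast cell markers Hdc rose, and of 7 proliferation genes Pcna rose. No T and NK cell marker of 9 passed edgeR's test, with 0 at an unadjusted p below 0.05, 0 calls in DESeq2 and 5 with the replicate block. No megakaryocyte marker of 7 and no stromal marker of 6 passed in edgeR or DESeq2, where 1 and 3 had an unadjusted p below 0.05. With the replicate block 1 marker rose in each list. In the megakaryocyte list 1 also rose with library totals, without both replicate 2 libraries, and with the length and GC trend removed. Without single libraries the falls were 1 in the monocyte list (PGE2 replicate 2 or 3, vehicle replicate 1 or 2) and 1 in the dendritic list (each library but PGE2 replicate 3), Pcna did not pass without PGE2 replicate 1 or 3 or vehicle replicate 2, and 1 stromal marker rose without PGE2 replicate 3.

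The ER-associated degradation genes, which move misfolded proteins to the proteasome, gave no edgeR call among 4, while 3 had an unadjusted p below 0.05. Syvn1, the ubiquitin ligase HRD1, was at 0.27 ± 0.09 on the log2 scale (SE), with an adjusted p of 0.0517. Sel1l, the partner protein of HRD1, was at -0.30 ± 0.10 with an adjusted p of 0.0563. Herpud1, which organises the HRD1 complex, was at -0.31 ± 0.11 with an adjusted p of 0.0665. The estimates differed in sign, and in each of these genes the groups did not overlap.

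All of these 3 passed with the replicate block, at adjusted p of 0.0162, 0.00885 and 0.0213, and in DESeq2, at 0.0276, 0.0273 and 0.0278, each in the same direction as in edgeR. With the length and GC trend removed Sel1l was at -0.12 with an adjusted p of 0.334, while Syvn1 (0.00927) and Herpud1 (0.0288) passed. Syvn1 passed without PGE2 replicate 1 (0.0342) and Sel1l without vehicle replicate 3 (0.0407). Mrpl49 overlaps Syvn1 on the other strand. Edem1, a lectin-like protein that extracts glycoproteins for degradation, was at -0.06 ± 0.07 with overlapping groups, and at 0.09 with that trend removed.

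**Figure D3:**
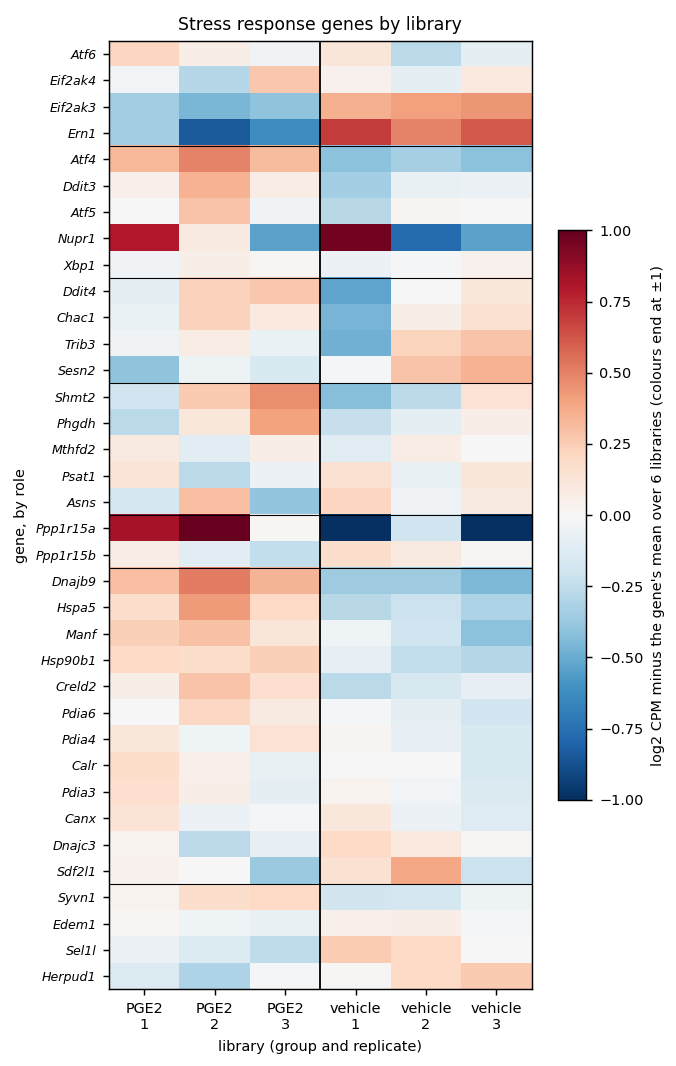
log2 CPM of each of the 36 genes in each library, minus that gene's mean over the 6 libraries, with PGE2 libraries left of the vertical line and horizontal lines between roles; colours end at ± 1. Atf4, Dnajb9, Hspa5, Hsp90b1 and Manf are red throughout PGE2 and blue throughout vehicle, Eif2ak3 and Ern1 the reverse, while Nupr1 varies as much within as between groups.

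Promoters were searched for motifs known from these pathways, to set their letters beside the values. The windows, from RefSeq on GRCm38.p6, held 250 bases before and 50 after the gene start, and 33 of the 36 genes had at least 1. Both strands were searched for exact matches only, so near matches were not counted. The ER stress element, to which ATF6 and NF-Y bind, was searched as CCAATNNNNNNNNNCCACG. It was found in 8 of the 33 genes (24.2%), against 0.137% of 27025 genes with a window and 0.168% of the 11313 tested genes among them. The motif and the 36 genes were both picked as known parts of these pathways, so this excess is no result about PGE2. These were Calr, Canx, Creld2, Dnajc3, Hsp90b1, Hspa5, Pdia6 and Syvn1, of which 2 passed as higher and 7 had estimates above zero. Its short form, ATTGGNCCACG, was found in Herpud1 alone of the 33 genes, against 0.0444% of all genes.

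The core of the amino acid response element bound by ATF4 with C/EBP partners was searched as TGATGNAA. It was found in 5 of the 33 genes (15.2%), against 4.51% of all genes and 3.02% of tested genes: Asns, Chac1, Herpud1, Nupr1 and Trib3. None of these passed edgeR's test, and 2 had estimates above zero. The cAMP response element TGACGTCA was found in Ppp1r15a alone, or 3.03% of the 33 genes, against 2.03% of all genes and 3.38% of tested genes. The XBP1 site core TGACGTGG was found in none of the 33 genes, against 0.714% of all genes. A match is only a run of letters, and binding was not measured.

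The 250 bases before the start are printed for 6 genes with a match, the 3 with the smallest adjusted p among those with an estimate above zero and likewise 3 below zero, 5′ to 3′ on the gene's strand with the matched motifs in capitals; the matches in a window do not overlap. Hspa5 carries an ER stress element at position -65 from the gene start (chr2:34771840-34772089, + strand). Hsp90b1 carries this element 2 times, at position -212 and, on the other strand, at -107 from the start (chr10:86705445-86705694, - strand). Ppp1r15a carries the cAMP response element at position -12 from the start (chr7:45526269-45526518, - strand). Herpud1 carries the ATF4 core on the other strand and then the short ER stress element (chr8:94386179-94386428, + strand). Dnajc3 carries an ER stress element (chr14:118937682-118937931, + strand), and Asns the ATF4 core (chr6:7693210-7693459, - strand).
Hspa5: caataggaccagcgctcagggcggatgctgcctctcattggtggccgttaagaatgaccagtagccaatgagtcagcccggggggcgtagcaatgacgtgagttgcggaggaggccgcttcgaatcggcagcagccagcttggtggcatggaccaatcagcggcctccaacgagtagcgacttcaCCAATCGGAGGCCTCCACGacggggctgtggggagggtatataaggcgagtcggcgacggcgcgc
Hsp90b1: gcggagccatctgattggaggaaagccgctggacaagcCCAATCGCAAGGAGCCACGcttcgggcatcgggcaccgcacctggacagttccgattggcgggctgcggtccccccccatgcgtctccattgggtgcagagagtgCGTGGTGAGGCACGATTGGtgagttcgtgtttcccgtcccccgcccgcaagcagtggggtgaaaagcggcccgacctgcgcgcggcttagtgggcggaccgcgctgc
Ppp1r15a: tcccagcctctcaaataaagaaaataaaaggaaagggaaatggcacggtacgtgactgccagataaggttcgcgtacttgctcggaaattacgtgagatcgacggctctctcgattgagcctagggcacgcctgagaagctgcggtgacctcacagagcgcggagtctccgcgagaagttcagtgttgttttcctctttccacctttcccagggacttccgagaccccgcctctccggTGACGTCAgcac
Herpud1: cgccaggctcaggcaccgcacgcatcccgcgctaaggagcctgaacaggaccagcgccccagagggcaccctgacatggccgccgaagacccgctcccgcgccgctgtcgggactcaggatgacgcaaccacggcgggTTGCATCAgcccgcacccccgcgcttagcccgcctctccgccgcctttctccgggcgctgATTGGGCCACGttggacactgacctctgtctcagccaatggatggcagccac
Dnajc3: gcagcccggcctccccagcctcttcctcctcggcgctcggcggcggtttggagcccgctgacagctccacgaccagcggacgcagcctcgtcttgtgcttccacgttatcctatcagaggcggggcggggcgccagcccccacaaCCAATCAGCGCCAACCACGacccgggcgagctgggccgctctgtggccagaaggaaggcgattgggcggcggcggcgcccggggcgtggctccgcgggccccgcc
Asns: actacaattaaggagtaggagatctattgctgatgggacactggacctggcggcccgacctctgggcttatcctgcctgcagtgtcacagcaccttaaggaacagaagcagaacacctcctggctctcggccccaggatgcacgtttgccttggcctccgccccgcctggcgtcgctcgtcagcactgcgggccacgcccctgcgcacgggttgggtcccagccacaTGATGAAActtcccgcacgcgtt

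These windows set the letters beside the values above. Hspa5 and Dnajc3 hold the same element, and their log2 differences were 0.54 and -0.20. Dnajc3 did not pass (edgeR adjusted p = 0.189) and its groups overlapped, and 7 of the 8 genes with this element had estimates above zero. Asns, with the ATF4 core near its start, was at -0.15 with overlapping groups (edgeR adjusted p = 0.645), and Atf4 itself rose. The part of these elements in the values was not tested.

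Levels between genes were compared on deposited TPM, which allow for gene length. With PGE2, Ppp1r15a had the highest mean of the 36 genes at 289 ± 148 TPM, and with vehicle it was the seventh at 88.4 ± 34.8 TPM (SD, n = 3 each). Atf4 was in second place in both groups, at 257 ± 5.59 TPM with PGE2 and 163 ± 7.99 TPM with vehicle. Hspa5 followed at 201 ± 2.93 TPM with PGE2 and 150 ± 8.34 TPM with vehicle. Given the spread of Ppp1r15a, its PGE2 level was not apart from those of Atf4 and Hspa5.

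Calr was near level between the groups at 180 ± 23.3 TPM with PGE2 and 181 ± 19.0 TPM with vehicle, and it was the most abundant of the 36 with vehicle. The sensors were scarce apart from Eif2ak3, which had 38.0 ± 4.35 TPM with PGE2 and 70.3 ± 2.76 TPM with vehicle. Ern1 had 4.83 ± 1.16 TPM with PGE2 and 11.9 ± 1.59 TPM with vehicle. Eif2ak4 was the lowest of the 36 in both groups, at 2.94 ± 0.777 TPM with PGE2 and 3.21 ± 0.395 TPM with vehicle.

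**Figure D4:**
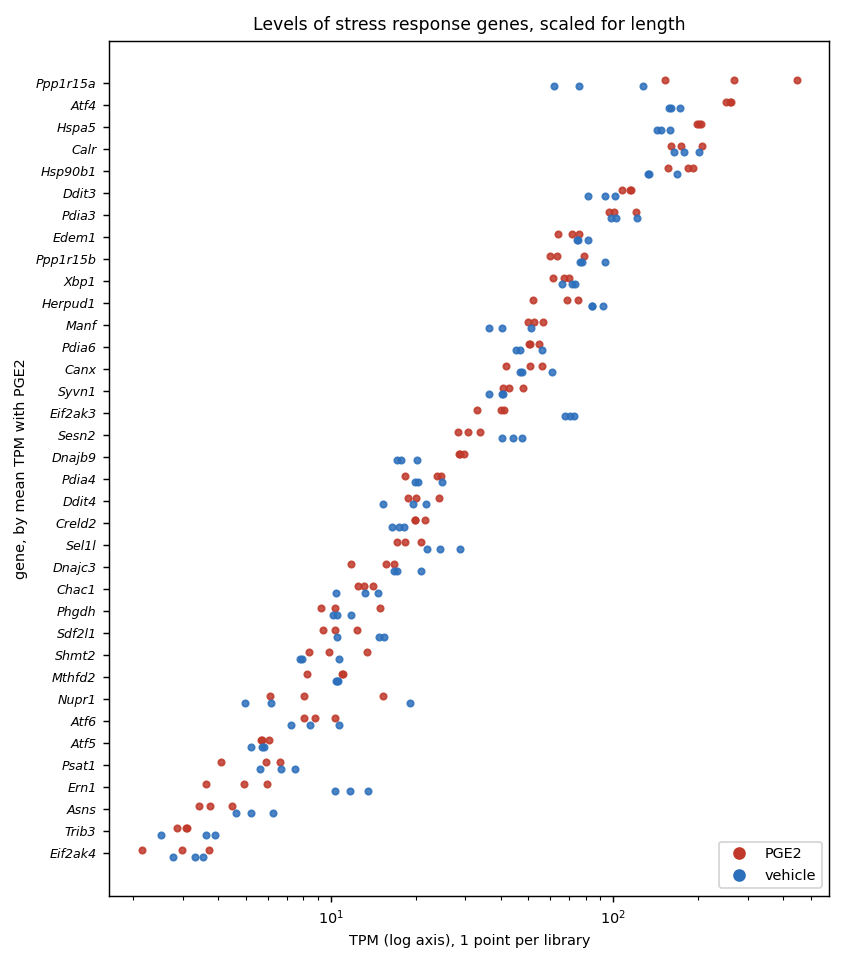
Deposited TPM of the 36 genes on a log axis, 1 point per library, PGE2 in red and vehicle in blue, sorted by the PGE2 mean. With PGE2, means span from 2.94 TPM for Eif2ak4 to 289 TPM for Ppp1r15a, and the blue points of Eif2ak3 and Ern1 lie to the right of their red points.

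Genes that share these pathways were read from 9 further lists holding 186 genes, of which 179 were tested and 25.7% passed, with 29 rises and 17 falls. Of all tested genes 24.4% passed, 10.1% as rises and 14.3% as falls, so the share that passed was near that of all genes. The counts of the single lists below stand beside the same shares. The list of other ATF4 targets gave 7 rises and 4 falls among 30 tested genes, with a median log2 fold change of 0.38. Its genes were listed as known targets, and control by ATF4 in these cells was not tested. Cdkn1a, the cell cycle inhibitor p21, rose to 131 ± 46.5 CPM with PGE2, against 14.4 ± 1.59 CPM with vehicle (SD, n = 3 each). Cebpb, a transcription factor that pairs with ATF4, rose to 320 ± 64.1 CPM, against 103 ± 19.2 CPM with vehicle. Slc3a2, the heavy chain of amino acid transporters, rose to 269 ± 41.7 CPM with PGE2, against 93.7 ± 16.7 CPM with vehicle.

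The edgeR adjusted p of these rises was 0.000255 for Cdkn1a, 0.000788 for Cebpb and 0.000571 for Slc3a2. Ndrg1, a stress and differentiation gene, fell by 0.86 on the log2 scale, as did Bbc3, the death gene PUMA, by 0.71 and the transcription factor gene Jdp2 by 0.38. Without vehicle replicate 1 or vehicle replicate 2 the list had 2 falls, and with the replicate block it had 13 rises.

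Other genes of ER import and quality control moved both ways. Of 22 translocon, signal recognition and signal peptidase genes 7 rose and 1 fell. Srp9, of the signal recognition particle, rose by 0.77 ± 0.09 on the log2 scale, Spcs1, of the signal peptidase, by 0.71 ± 0.08, and Ssr4, of the translocon, by 0.61 ± 0.09, while Tram1, a translocating chain protein, fell by 0.36 ± 0.09 (SE). This list had 4 rises without PGE2 replicate 2, vehicle replicate 2 or vehicle replicate 3, each in turn, and 4 on TPM. The fall of Tram1 did not pass without PGE2 replicate 3 or without vehicle replicate 2 or 3.

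Of 25 other degradation genes 3 rose and 5 fell. Selenok, a selenoprotein of the ER membrane, rose to 126 ± 17.2 CPM with PGE2, against 68.1 ± 1.03 CPM with vehicle. Selenos and Edem3 rose by 0.63 and 0.36 on the log2 scale. The rise of Selenos passed in all 19 alternatives and that of Edem3 in 10 of 19. Ngly1, a glycan-removing enzyme, and Aup1, a partner of degradation ligases, fell by 0.48 and 0.36 on the log2 scale. The number of falls was 1 without PGE2 replicate 2, vehicle replicate 2 or vehicle replicate 3, and 2 without PGE2 replicate 3 or with library totals.

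Of 20 other folding and oxidation genes, Cnpy2, an ER-resident protein, and Prdx4, a peroxiredoxin, rose by 0.64 and 0.81, and Uggt1, the sensor of glycoprotein folding, fell by 0.38 on the log2 scale. With the length and GC trend removed Uggt1 was at -0.08 with an adjusted p of 0.517, and Prdx4 had an adjusted p of 0.0529. This list had 1 rise on TPM and without PGE2 replicate 2, vehicle replicate 1 or vehicle replicate 2. Of 16 other stress transducers, Mapk8 and Rtcb, the kinase JNK1 and the ligase that joins Xbp1 exons, rose by 0.41 and 0.36, and Rtcb had an adjusted p of 0.0689 with the length and GC trend removed. Map3k5 (the kinase ASK1), which acts below IRE1, fell to 216 ± 16.0 CPM with PGE2, against 380 ± 20.2 CPM with vehicle, and Dab2ip, whose product binds that kinase, and Creb3l3, an ER membrane transcription factor known from liver, fell by 0.73 and 2.39 on the log2 scale. Creb3l3 was scarce, at 0.306 ± 0.283 CPM with PGE2 and 1.6 ± 0.331 CPM with vehicle. The number of rises among the transducers was 0 on TPM and without PGE2 replicate 2, vehicle replicate 2 or vehicle replicate 3, and 1 without PGE2 replicate 3 or vehicle replicate 1.

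None of 15 further genes for eIF2α kinases, eIF2 and eIF2B passed edgeR's test, although 4 had an unadjusted p below 0.05, DESeq2 called 1 as lower, and the replicate block called 3 as higher and 2 as lower. Without PGE2 replicate 1 this list had 1 rise and 1 fall, and without PGE2 replicate 3 it had 1 fall. Of 20 aminoacyl-tRNA synthetase genes, Aars rose by 0.62 and Dars fell by 0.72 on the log2 scale. In this list 2 genes rose without vehicle replicate 1, and 5 with the replicate block. Of 21 genes of a mainly cytosolic heat shock list, 5 rose and 1 fell, the largest named rise being Dnaja1 at 246 ± 31.4 CPM with PGE2, against 154 ± 8.29 CPM with vehicle. This list also held the mitochondrial chaperonin genes Hspd1 and Hspe1, which the mitochondrial list below shares. The rise of Hspe1 is thus counted in both lists. Dnajb6 and Hspa4 rose by 0.46 and 0.36, and Ahsa1 fell by 0.30 on the log2 scale.

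The heat shock list was sensitive to the libraries used. It had 2 rises without PGE2 replicate 2 or vehicle replicate 3, 3 without vehicle replicate 1, 2 on TPM, 9 with library totals and 14 with the replicate block, and the fall of Ahsa1 did not pass without PGE2 replicate 1, 2 or 3 or vehicle replicate 1 or 2. Of 12 genes of the mitochondrial unfolded protein response, Hspa9, Hspe1 and Lonp1 rose by 0.46, 0.51 and 0.35, and Oma1 fell by 0.37 on the log2 scale. The list had 1 rise without PGE2 replicate 2 or 3 or vehicle replicate 2 or 3, the fall of Oma1 did not pass without PGE2 replicate 1, 2 or 3 or vehicle replicate 1 or 2, and on TPM no gene of the list passed. Hspe1 had an adjusted p of 0.181 with the length and GC trend removed. Counts of the mitochondrial genome took 1.24 to 1.34% of each PGE2 library and 0.900 to 0.999% of each vehicle library, and their part in these values was not tested.

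**Figure D5:**
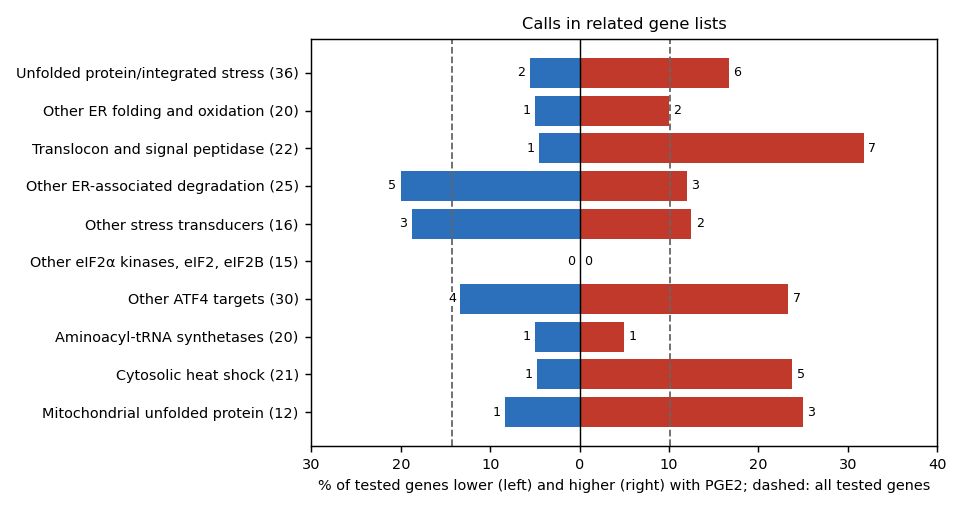
Share of tested genes that passed in edgeR's test as lower (blue, left) and higher (red, right) with PGE2 for the 36 stress genes and the 9 further lists, with the number of tested genes in brackets and the number of calls at the bar ends. Dashed lines give the shares of all tested genes, 14.3% lower and 10.1% higher. The bar of the translocon list reaches farthest right with 7 rises, and the eIF2α kinase list has no bar. The heat shock and mitochondrial lists share Hspd1 and Hspe1.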

How the data were processed

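Neutrophil libraries of 2 groups, PGE2 and vehicle, were compared, 3 each, with group and replicate number read from each title. The submitters' processing notes name build mm10 and the tools STAR, Bowtie2, RSEM, StringTie 2.1.3b and DESeq2, with no role or order, and no source used here says whether the counting was stranded. The authors deposited estimated counts per gene as whole numbers; their name says normalized, yet library totals vary, so TMM scaling was applied here. The authors also deposited TPM and read coverage per gene for each library, per the file headers. In 402 of 415 genes of a single exon and 200 or more counts, coverage times length over count gave 101 bases, as for counts of reads. For 96.4% of genes the coordinates equalled RefSeq GRCm38.p6. The deposited table also held 18 columns of 6 libraries outside these samples, not used here.

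Counts were scaled by TMM and tested in R 4.3.3 by the quasi-likelihood test of edgeR 4.0.16, on genes with at least 10 counts in at least 3 libraries (15947 of 45777), two-sided, with Benjamini-Hochberg adjustment at 0.05. CPM are scaled by TMM. The alternatives were other scalings, filters, DESeq2 1.42.0, limma 3.58.1 on log2(TPM + 1), each library left out and the replicate block; removal of a length and GC trend and leaving out both replicate 2 libraries were chosen after seeing the data. Fold changes on TPM are on the log2(TPM + 1) scale. Deviations of same-numbered libraries from their group means correlated at 0.26, 0.17 and 0.19, and each library correlated best with its own number. The test was checked on simulated counts. The 36 genes, the further lists and the markers were chosen with earlier results of these data known, so their counts are descriptions. All 36 genes were named; from each further list, up to 3 genes per direction with the smallest adjusted p were named. A gene that this rule would name is not reported here. Symbols were matched as deposited.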

Additional observations from a re-analysis of the deposited data

How the results depend on the processing

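Over 36 stress genes and 19 alternatives there were 684 comparisons with the reported result. In 632 the side of the threshold was kept, 33 gained a call, 19 lost one, and no called direction turned. A change of sign between 2 estimates that both missed the threshold was counted among the 632. By sign, 23 estimates were above zero as reported and 18 on TPM. Rises of stress genes numbered 6 as reported, 10 with the replicate block, which pairs same-numbered libraries, 3 on TPM without a filter, 3 without both replicate 2 libraries, and 4 to 6 with each library left out. Falls numbered 2 as reported, 5 with DESeq2, 5 with the replicate block, 4 with the block and the length and GC trend removed together, and 2 to 3 with each library left out. The median log2 fold change, 0.11 as reported, was 0.19 with library totals, 0.01004 on log2(TPM + 1) with or without a filter, 0.0105 on log2(TPM + 0.1), and 0.0506 to 0.135 with each library left out. Over all genes, rises numbered 1618 as reported, 2648 with the replicate block, 2634 with the block and the trend removed, 967 on log2(TPM + 1), 953 on log2(TPM + 0.1), 670 on TPM without a filter, 462 without both replicate 2 libraries and 1005 to 1541 with each library left out. Falls over all genes numbered 2278 as reported, 832 without both replicate 2 libraries and 1627 to 2262 with each library left out. In the further lists, rises numbered 29 as reported, 55 with the block, 48 with the block and the trend removed, 16 on log2(TPM + 1), 16 on log2(TPM + 0.1), 13 on TPM without a filter, 14 without both replicate 2 libraries and 19 to 31 with each library left out. Falls in those lists numbered 17 as reported, 6 without both replicate 2 libraries and 7 to 15 with each library left out. Leaving out libraries also leaves fewer samples for the test; the cause of the other differences was not tested. The 3 libraries per group limit precision; the largest SE of a log2 fold change among the 36 genes were 0.50 for Nupr1 and 0.46 for Ppp1r15a.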
